A study of Drosophila melanogaster with 8 samples.

Results

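Long noncoding RNAs (lncRNAs) and antisense RNAs (asRNAs) are transcripts of RNA polymerase II (RNAPII) that encode no known protein, and an asRNA runs on the strand opposite to another gene. Many arise beside or inside protein-coding genes, some from a promoter region that fires in both directions. Others are the primary transcripts from which microRNAs are cut, or act as RNA on chromatin, as roX2 does on the male X chromosome of flies. Their promoters were examined here for RNAPII occupancy in S2 cells, a Drosophila melanogaster line derived from male embryos and resembling hemocytes, the blood cells of the fly. A member was any gene whose name starts with lncRNA: or asRNA: and whose nearest RNAPII site is centred at most 1000 bp from its annotated transcription start site (TSS). Where a gene had several such entries, which may cover the same place, the one of highest mean concentration represented it. The rule found 85 genes, of 4755 genes named at any site and of 187 lncRNA or asRNA names at any distance. They comprised 66 lncRNA and 19 asRNA names. The rule used names, distance and mean level, and not the difference between conditions. Each site, however, entered as a peak called in either condition. A weak site could therefore enter only through the condition where it was higher, and its fold is not independent of that.

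The conditions were a knockdown of the linker histone H1, labelled KDH1, and a control treatment labelled LacZ, the name of a bacterial gene absent from flies. Both used S2 cells. Each condition gave 2 RNAPII precipitations and 2 libraries of 10% input, 8 libraries in all, after 10 minutes of fixation in 1.8% formaldehyde. The level of H1 itself was not measured in the files used. Whether the libraries of a condition are separate cultures is not stated in the labels, and the p-values then reflect only how far these libraries differ, which may be technical. The files used give 1 mean log2 concentration per site and condition, so no value per library, no depth and no replicate error could be shown. A fold here is always the log2 concentration in H1 knockdown cells less that in LacZ cells, and positions are in dm3. The scaling between libraries was not stated, and it sets where a fold of 0 lies. Precipitated DNA carries no strand, so polymerase on an antisense transcript and on its sense partner cannot be told apart. A promoter site was found for 10 of 13 hemocyte marker genes, including Hml, srp and Pxn, with none for Sr-CI, NimC1 and Fer1HCH. Of 11 markers of neurons, muscle, germ line, fat body and epidermis, elav and bam had one.

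Median RNAPII levels were somewhat higher at the noncoding promoters than at other promoters, in both conditions. The median log2 concentration of the members was 8.91 in H1 knockdown cells, against 8.72 in LacZ cells, in the authors' deposited table. For the 4193 other genes with a site within 1000 bp of a TSS these medians were 8.58 in H1 knockdown cells and 8.40 in LacZ cells. Members ranged from 7.12 to 10.90 in H1 knockdown cells and from 6.65 to 10.86 in LacZ cells, so they spanned weak and strong promoters alike. Their sites had a median width of 719 bp (274 to 2917 bp), against 558 bp at the other promoter genes. The part of width in the higher levels was not tested. Most sites sat close to the start, with 55 of the 85 centred within 250 bp and a median distance of 141 bp. The authors' annotation placed 65 of the 85 sites at a promoter, 12 in a noncoding exon, 3 in an intron, 3 at a transcription termination site and 2 in a coding exon. Only 1 member site carried a repeat annotation, and 3 lay on heterochromatic scaffolds.

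Most members had a small positive fold, and none passed an FDR of 0.05. The median fold of the 85 was 0.13 in the authors' deposited table, with the 25th percentile at 0.02, the 75th at 0.23 and a range of -0.28 to 0.73. For comparison, the 4193 other promoter genes had a median of 0.16 (0.08 to 0.26) and all 14357 entries one of 0.08 (-0.03 to 0.19). Folds lay above 0 at 67 members, at 0 at 4 and below 0 at 14, so that 78.8% were above 0. The same share was 93.8% among the other promoter genes and 68.2% among all entries. The authors' unadjusted calls, which mark p under 0.05 by DiffBind, took in 6 members as higher, or 7.06%, against 6.75% of the other promoter genes, 6.76% of all 4278 promoter genes and 3.99% of all entries. Among members 0 were called lower (0.0%), against 0.0238% of the other promoter genes, 0.0234% of all promoter genes and 0.0557% of all entries. The share called higher is therefore near that of promoters at large. No entry of the table passed an FDR of 0.05 (0.0% of 14357).

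**Figure D1:**
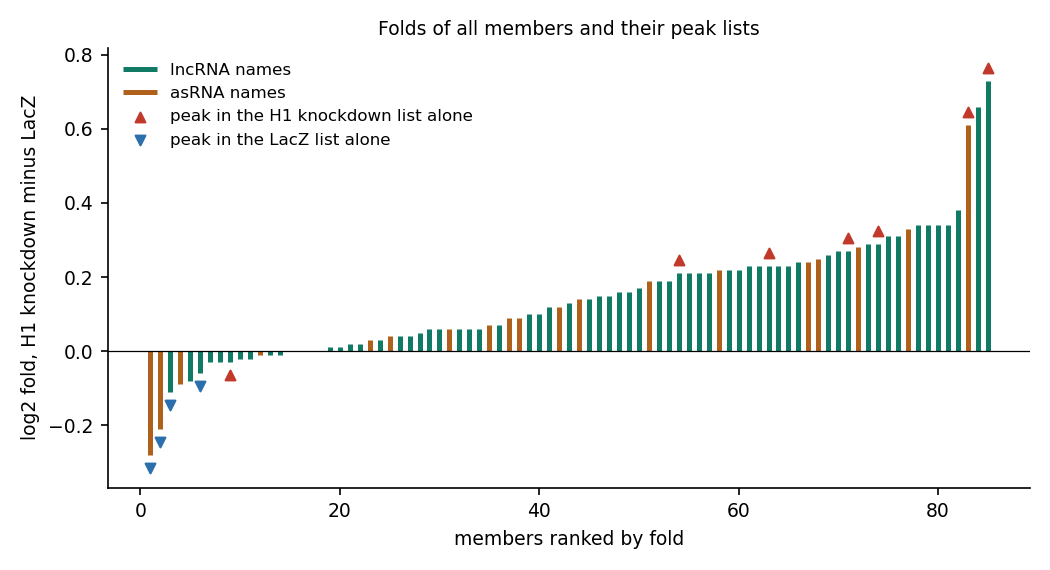
Log2 fold (H1 knockdown minus LacZ, vertical axis) of the 85 members in order of fold (horizontal axis), coloured by name class. Triangles mark the 7 members with a peak in the H1 knockdown list alone (up) and the 4 with a peak in the LacZ list alone (down). Folds run from -0.28 to 0.73, and the 3 above 0.5 stand apart from the rest.

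The 6 members called higher by the authors at an unadjusted p under 0.05 are given first. The site of lncRNA:CR45433 (3L, 19854315 to 19854974) had a log2 concentration of 8.84 in H1 knockdown cells and 8.18 in LacZ cells, a fold of 0.66, or a ratio of 1.58, in the authors' deposited table. Its p was 0.000408 and its FDR 0.342, the only member FDR under 1. Its second entry within 1000 bp of the TSS was called as well, with a fold of 0.58. That entry may cover the same reads, so it is not independent support. The gene table of Release 6 places Papss, the enzyme gene for the sulfate donor PAPS, within 1000 bp of it.

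The largest fold of all members belonged to lncRNA:CR45243 (3L, 20943431 to 20943706), with 7.38 in H1 knockdown cells, against 6.65 in LacZ cells, a fold of 0.73 (p = 0.00429) in the authors' deposited table. This member had the lowest mean concentration of the 85, at 7.06, and its peak was in the H1 knockdown list alone. The site thus entered through the condition where it was higher. Its site was annotated at the promoter of fng, the gene of the Notch-modifying glycosyltransferase Fringe. The own promoter site of fng, which did not overlap it, had 9.20 in H1 knockdown cells and 9.18 in LacZ cells, a fold of 0.01 (p = 0.947) in the authors' deposited table.

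On chromosome 4, asRNA:CR44030 (980465 to 980823) had 7.43 in H1 knockdown cells, against 6.83 in LacZ cells, a fold of 0.61 (p = 0.0115) in the authors' deposited table. It was the only member on that chromosome, and its peak too was in the H1 knockdown list alone. The site was annotated at the promoter of the neighbouring lncRNA:CR45201, and fuss, a gene of the SKI/SNO family of Smad cofactors, overlaps it. These 3 were the members with a fold of at least 0.5, a size that 77 of the 4193 other promoter genes reached.

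The other 3 called members had higher levels and smaller folds. The site of lncRNA:CR44458 (2R, 11258764 to 11259799) had 9.02 in H1 knockdown cells and 8.64 in LacZ cells, a fold of 0.38 (p = 0.0316) in the authors' deposited table. The annotation puts it at the promoter of Pms2, a DNA mismatch repair gene, whose own site overlapped it and was also called higher, at 8.15 in H1 knockdown cells and 7.75 in LacZ cells (fold 0.40, p = 0.043) in the authors' deposited table. The wide site of lncRNA:CR46268 (2L, 22430776 to 22433179), centred 955 bp from the TSS in an exon of CG17490, had 10.40 in H1 knockdown cells and 10.09 in LacZ cells, a fold of 0.31 (p = 0.0384) in the authors' deposited table. Near the centromeric end of 2R, lncRNA:CR46064 (670244 to 671678) had 9.66 in H1 knockdown cells, against 9.32 in LacZ cells, a fold of 0.34 (p = 0.0447) in the authors' deposited table. Its other entry, closer to the TSS, missed the call with a fold of 0.33 (p = 0.0522) in the authors' deposited table. The coding gene CG12547 lies within 1000 bp of lncRNA:CR46064 in Release 6. The promoter site named for CG12547 had 8.71 in H1 knockdown cells and 8.29 in LacZ cells and was called higher (fold 0.43, p = 0.0114) in the authors' deposited table. A protein-coding gene lies within 1000 bp of all 6 called members in Release 6, as it does for 68 of the 85 members.

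Just past the call threshold stood asRNA:CR42254 (2R, 10658306 to 10659024), with 8.73 in H1 knockdown cells and 8.41 in LacZ cells (fold 0.33, p = 0.05) in the authors' deposited table. It lies by Spred and overlaps BEAF-32, which encodes an insulator protein. Likewise uncalled, lncRNA:CR45643 (3R, 12048131 to 12049289) had 9.29 in H1 knockdown cells and 8.96 in LacZ cells (fold 0.34, p = 0.0505) in the authors' deposited table. It has no coding gene within 1000 bp.

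**Figure D2:**
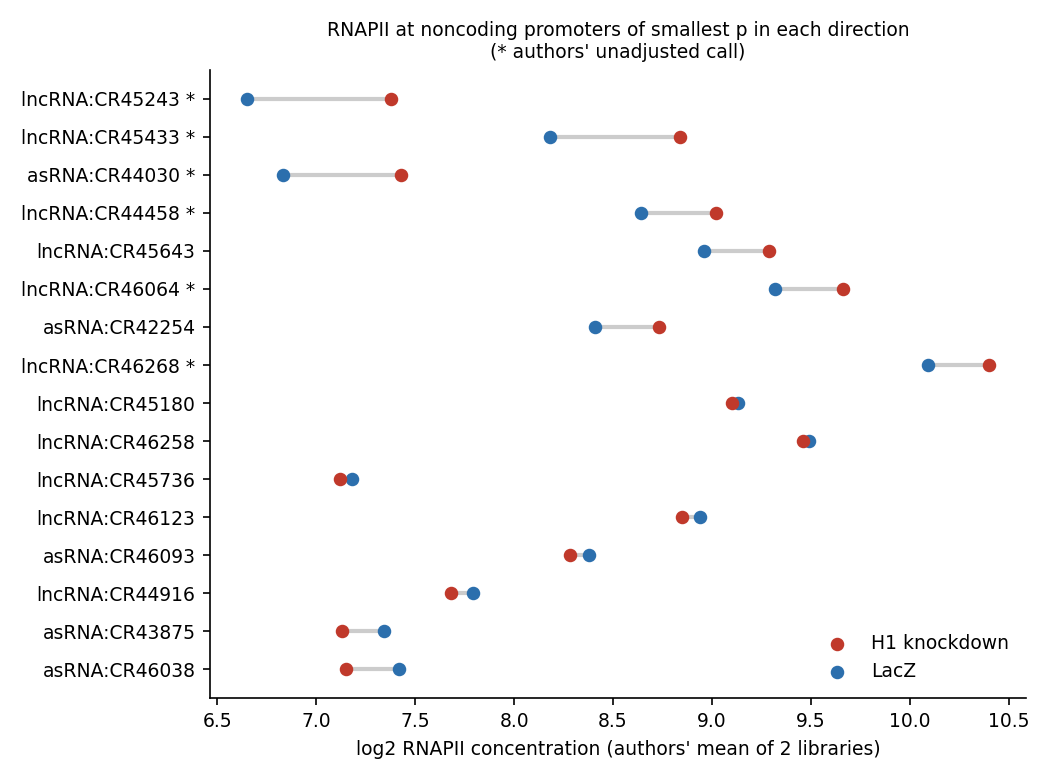
Log2 RNAPII concentration (horizontal axis, the authors' mean of 2 libraries) in H1 knockdown cells (red) and LacZ cells (blue) at the 8 members of smallest p with a positive fold and the 8 with a negative one. Asterisks mark the authors' unadjusted calls, and the 3 largest positive folds (0.61 to 0.73) exceed the largest negative one in size (-0.28).

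None of the 14 members with a fold below 0 was called. The lowest was asRNA:CR46038 (3R, 5948342 to 5948696), with 7.15 in H1 knockdown cells, against 7.42 in LacZ cells, a fold of -0.28 (p = 0.178) in the authors' deposited table. Its site lies at the termination site of ATPsynepsilonL, and the asRNA gene overlaps knk, which organises chitin. Next came asRNA:CR43875 (3L, 20310183 to 20310499), at the promoter of the serpin gene Spn77Ba, with 7.13 in H1 knockdown cells and 7.34 in LacZ cells (fold -0.21, p = 0.33) in the authors' deposited table. Both are weak sites with a peak in the LacZ list alone, and so entered through the condition where they were higher. The remaining 12 had folds of -0.11 to -0.01 in the authors' deposited table. They include lncRNA:CR44916 (2L, fold -0.11) and lncRNA:CR45736 (3L, -0.06). Another is asRNA:CR46093 (3R, -0.09), which overlaps BRWD3 and lies by the poly(A) RNA-binding protein gene Nab2. The 12 also include lncRNA:CR46258 (2L, 490504 to 491308, fold -0.03), which overlaps ush, the gene of a GATA cofactor of hemocytes. The promoter site of ush itself (490437 to 491303) overlapped this member site. It had 9.53 in H1 knockdown cells and 9.54 in LacZ cells in the authors' deposited table, so the 2 sites cannot be taken as separate promoters.

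Of the 3 members on heterochromatic scaffolds, asRNA:CR45139 on 2RHet had 8.41 in H1 knockdown cells and 8.13 in LacZ cells (fold 0.28, p = 0.0977) in the authors' deposited table. The other two were near 0. The site of lncRNA:CR46123 on 3RHet had 8.85 in H1 knockdown cells and 8.94 in LacZ cells, and that of lncRNA:CR45180 on 3LHet 9.10 in H1 knockdown cells and 9.13 in LacZ cells.

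Both peak lists were called on libraries pooled per condition, and 74 of the 85 sites overlapped a peak in each list by at least 1 bp. A peak in the H1 knockdown list alone was found at 7 members, and in the LacZ list alone at 4. These counts depend on the setting: with an overlap of at least 50% of the site they were 15 and 4, and with peaks of −log10 q of at least 5 they were 7 and 1, with 3 sites in neither list. The 11 sites were weak, and each entered through the condition whose list held its peak. Their folds are therefore not independent of the list they are in. The peak caller's fold enrichment over input was at most 2.34 in the H1 knockdown list at the 7, and at most 2.08 in the LacZ list at the 4. The median member peak had an enrichment of 5.89 in the H1 knockdown list (percentile 68.2 of its 7472 peaks) and of 4.68 in the LacZ list (percentile 67.8 of its 6885 peaks). The 7 comprised lncRNA:CR45243, asRNA:CR44030, lncRNA:CR45661 (fold 0.29), lncRNA:CR45352 (0.27), lncRNA:CR46015 (0.23), lncRNA:CR45923 (0.21) and lncRNA:CR45637 (-0.03), with folds from the authors' deposited table. The last of these had 7.20 in H1 knockdown cells and 7.22 in LacZ cells, nearly the same level.

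Of the 6 members of highest level, lncRNA:CR46268, described above, was the only one called. The most occupied, lncRNA:CR43626 (3L, 3249034 to 3251950), had 10.90 in H1 knockdown cells and 10.86 in LacZ cells (fold 0.04, p = 0.766) in the authors' deposited table. Second was lncRNA:CR43144, next to the cullin gene Cul2 on 2L, with 10.71 in H1 knockdown cells and 10.60 in LacZ cells (fold 0.12, p = 0.397) in the authors' deposited table. Then came lncRNA:CR44206 (2R, 10.38 in H1 knockdown cells and 10.30 in LacZ cells) and lncRNA:CR42862 (3L, 10.21 in H1 knockdown cells and 10.18 in LacZ cells). The site of lncRNA:CR44809 (2L, 22168606 to 22170369) was annotated at the promoter of Clamp, which encodes a zinc finger protein that recruits the dosage compensation complex. It had 10.25 in H1 knockdown cells and 10.04 in LacZ cells (fold 0.21, p = 0.367) in the authors' deposited table.

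Fold and level were related at promoters at large. Over the 4193 other promoter genes the correlation of fold with mean concentration was -0.43 (Pearson) and -0.51 (Spearman), and over the 85 members it was -0.13 and -0.12. These are descriptions, since fold and concentration come from the same libraries. All promoter genes were split into 4 bins of about equal size by concentration. In the lowest bin (6.75 to 7.89), the 18 members had a median fold of 0.175 and the 1064 other genes one of 0.27. In the second bin the medians were 0.09 for 15 members and 0.21 for 1056 other genes. The third bin had the higher median among members, 0.19 for 15 members and 0.13 for 1055 other genes. In the highest bin, which held 37 members and 1018 other genes, the medians were 0.07 and 0.08. The members' lower share of folds above 0 was found in the lowest bin (66.7% of members and 93.4% of other genes) and in the highest (73.0% and 92.4%), and in the middle bins the shares were close.

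**Figure D3:**
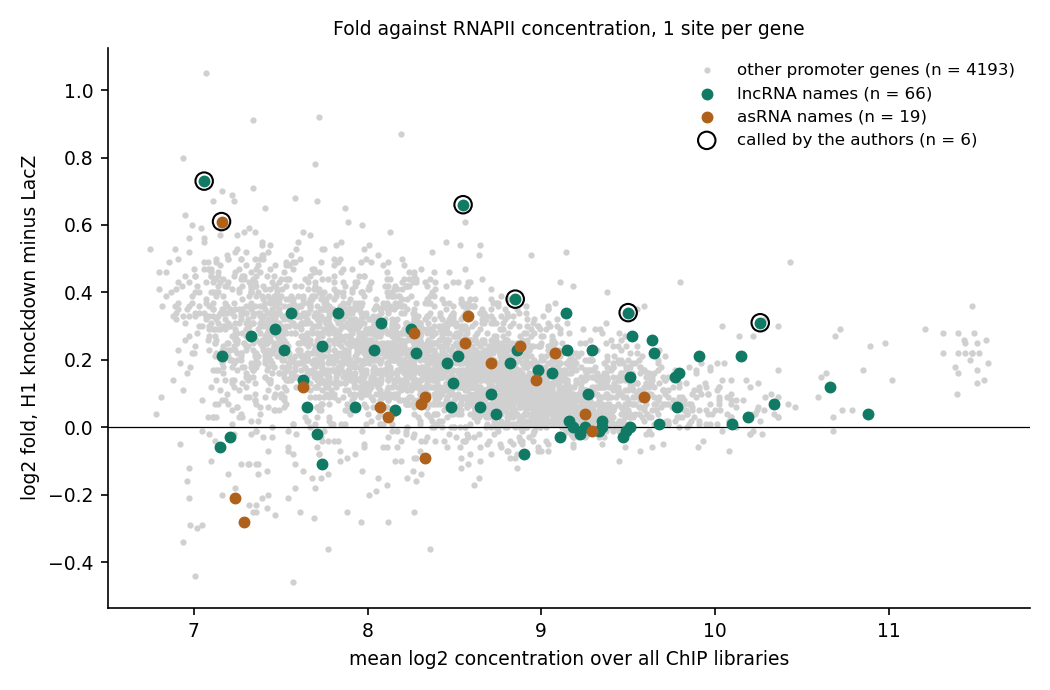
Log2 fold (H1 knockdown minus LacZ, vertical axis) against mean log2 concentration over all ChIP libraries (horizontal axis), 1 site per gene, for 66 lncRNA names (green), 19 asRNA names (brown) and 4193 other promoter genes (grey). Rings mark the 6 members called by the authors, and the grey points fan out toward low concentration.

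Few noncoding transcripts with known roles were members, and none of those described here was called. The X-linked lncRNA:roX2, an RNA component of the male dosage compensation complex, had 8.55 in H1 knockdown cells and 8.36 in LacZ cells at its site (X, 11472944 to 11473571), a fold of 0.19 (p = 0.28) in the authors' deposited table. The annotation puts that site at the termination site of CG11695, centred 159 bp from the roX2 TSS. No site was named for its partner lncRNA:roX1. The heat-inducible lncRNA:Hsromega (3R, 17121981 to 17123300), whose nuclear transcript organises the omega speckles, had 9.81 in H1 knockdown cells and 9.75 in LacZ cells (fold 0.06, p = 0.726) in the authors' deposited table. The site of lncRNA:alphagamma-element:CR32865 (3R, 8302474 to 8303550), a heat-inducible transcript of an Hsp70 locus, had 9.35 in H1 knockdown cells and 9.35 in LacZ cells (fold 0.00, p = 0.998) in the authors' deposited table. That member lies just inside the distance limit, at 977 bp, and the nearest name outside it was lncRNA:CR43974 at 1030 bp (7.66 in H1 knockdown cells, 7.34 in LacZ cells). Of the 24 known transcripts listed, lncRNA:roX2 and lncRNA:Hsromega were members. The snoRNA hosts Uhg1, Uhg3 and Uhg8 have promoter sites but carry no lncRNA prefix in the annotation, and lncRNA:flam and lncRNA:bxd have sites beyond 1000 bp alone.

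Genes listed for dosage compensation and for the Integrator complex were examined as well, and being listed does not mean that a gene acts on these RNAs. Of 8 genes listed for dosage compensation, 5 had a promoter site under their own name and 1 was called higher. This was mle, the helicase that remodels roX RNA, with 7.89 in H1 knockdown cells and 7.47 in LacZ cells (fold 0.42, p = 0.0417) in the authors' deposited table. The others with a site were msl-1 (fold 0.25), msl-2 (0.23), JIL-1 (0.17) and nej (0.13), all uncalled, and 6.76% of all promoter genes were called higher. No site was named for msl-3, mof or Clamp. The Clamp promoter is not empty, since the site annotated there is the one named for lncRNA:CR44809, given above. Integrator, the complex that cleaves nascent noncoding transcripts, had 6 of its 14 listed genes with a site, none called (0 higher, 0 lower), with folds of 0.08 at IntS6 to 0.29 at IntS4 in the authors' deposited table. Both lists had a median near that of promoters at large, 0.23 and 0.19 against 0.16 over all 4278 promoter genes.

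A set of 9 members holds a microRNA gene within its Release 6 span, 11 microRNA genes in all, as the primary transcript of a microRNA would. This set was formed after its values were seen. Its folds ran from 0.00 to 0.16 with a median of 0.04, against a median of 0.15 for the other 76 members, in the authors' deposited table. The span of lncRNA:CR43334 holds bantam (mir-ban), a growth-promoting and anti-apoptotic microRNA, and its site had 10.10 in H1 knockdown cells and 10.09 in LacZ cells. The host of mir-8, lncRNA:CR43650, had 9.19 in H1 knockdown cells and 9.18 in LacZ cells. The host of mir-279 and mir-996, lncRNA:CR31044, had 9.68 in H1 knockdown cells and 9.67 in LacZ cells. These 3 hosts had the same level in both conditions to within 0.01.

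Among the other 6 hosts, lncRNA:CR43857 (mir-275) had 9.36 in H1 knockdown cells and 9.34 in LacZ cells. The host of mir-34 and mir-277, lncRNA:CR43459, had 8.76 in H1 knockdown cells and 8.72 in LacZ cells. Folds in the authors' deposited table were 0.04 at lncRNA:CR43626 (mir-282), 0.06 at lncRNA:Hsromega (mir-4951) and 0.07 at lncRNA:CR44206 (mir-184). The highest was 0.16 at lncRNA:CR46006 (mir-276a), with 9.14 in H1 knockdown cells and 8.98 in LacZ cells. The hosts are highly occupied, with a median concentration of 9.68, and 8 of the 9 fall in the highest bin. Their median fold there was 0.03, against 0.08 for the other promoter genes of that bin, and the part of level in this was not tested. Hosts are also long, with a median gene length of 10400 bp in Release 6, against 1040.5 bp for the other members. For 5 further genes the annotation names the microRNA itself at a promoter site, and their median fold was 0.02.

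Members also differed by what lies beside them. With a protein-coding gene within 1000 bp of their span in Release 6, 68 members had a median fold of 0.15, and 59 of them were above 0, in the authors' deposited table. The 17 with none had a median of 0.00 and 8 above 0. Without microRNA hosts these medians were 0.17 for 63 members and -0.01 for 13. This split too was made after the values were seen. In the highest bin of concentration, 25 members near a coding gene had a median of 0.09 and 12 near none one of 0.04. In the lowest bin the medians were 0.23 for 13 members near a coding gene and -0.03 for 5 near none. The 5 include lncRNA:CR45352 and lncRNA:CR45637, with a peak in the H1 knockdown list alone. They also include lncRNA:CR44916 and lncRNA:CR45736, with a peak in the LacZ list alone. Such sites occur among the 13 too, and their folds are not independent of the list. The members near no coding gene include lncRNA:CR45643 and lncRNA:CR45640, both on 3R, with folds of 0.34 and 0.26, so isolated noncoding promoters did not all lie near 0.

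**Figure D4:**
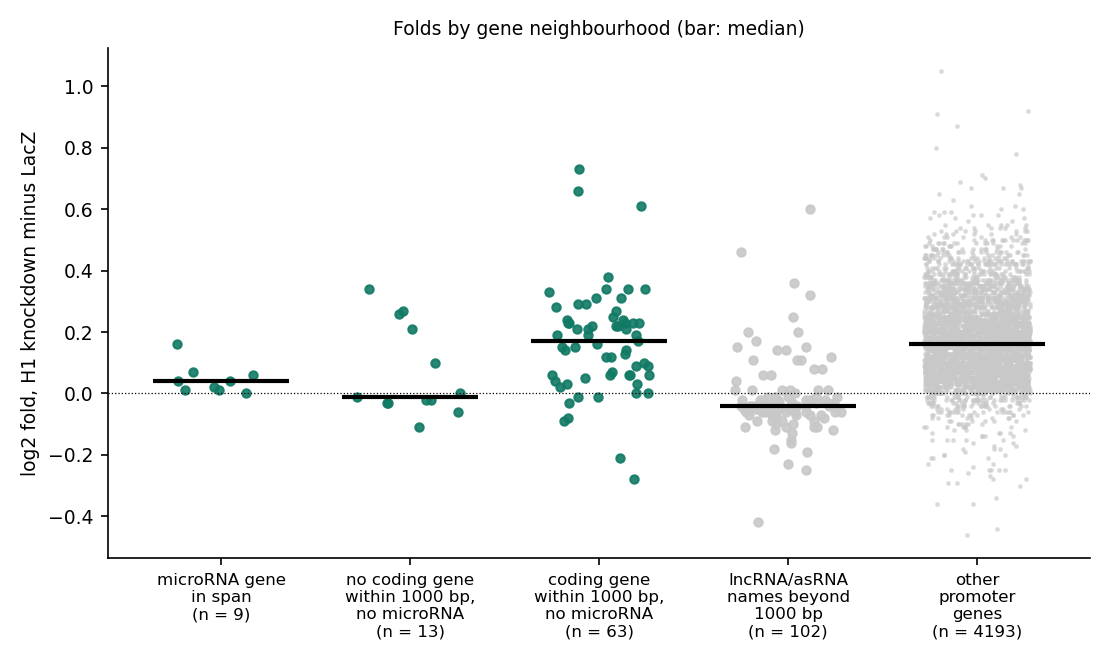
Log2 fold (H1 knockdown minus LacZ, vertical axis) of members by gene neighbourhood (green), beside lncRNA and asRNA names with sites beyond 1000 bp alone and the 4193 other promoter genes (grey). Points are genes and bars are medians. The 9 microRNA hosts lie between 0.00 and 0.16, while members beside a coding gene spread from -0.28 to 0.73.

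The authors' annotation placed 32 member sites at a transcript of a protein-coding gene. Their median fold was 0.155, with 27 above 0 and 3 called higher. For the 50 sites annotated at the member's own transcript the median was 0.095, with 38 above 0 and 2 called higher. Among all 4278 promoter genes 6.76% were called higher, and whether the 2 groups differ in calls was not tested. Each site is given to 1 nearest TSS, and 17 of the 32 coding genes have no promoter site of their own in the table, Clamp among them. The other 15 have one, which overlapped the member's site in 8 cases. Among those, lncRNA:CR43242 had 9.65 in H1 knockdown cells and 9.38 in LacZ cells and was not called (fold 0.27, p = 0.0994) in the authors' deposited table. The gene beside it, Spf45, which encodes a splicing factor, had 8.38 in H1 knockdown cells and 8.0 in LacZ cells and was called higher (fold 0.38, p = 0.04) in the authors' deposited table. Among the 7 that did not overlap, lncRNA:CR43496 had a fold of 0.23 beside 0.13 at sov, a piRNA pathway and heterochromatin gene. The fold of lncRNA:CR30055 was 0.22 beside 0.12 at Sin3A, the corepressor gene. That of lncRNA:CR32582 was 0.24 beside 0.15 at Chc, the clathrin heavy chain gene, and that of lncRNA:CR45517 was 0.17 beside 0.04 at CG15784, all from the authors' deposited table. The order was the other way for lncRNA:CR44814, with 0.06 beside 0.09 at the ribosomal protein gene RpL12, and for asRNA:CR45135, with -0.01 beside 0.04 at the transcription factor gene lola. The remaining one, fng, is given above. These differences within pairs were not tested.

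By name class, the 19 asRNAs had a median fold of 0.09 and 1 call, and the 66 lncRNAs had a median of 0.145 and 5 calls, in the authors' deposited table. The share called higher over all 4278 promoter genes was 6.76%, and a difference in calls between the classes was not tested. All 19 asRNAs overlap a coding gene in Release 6. The lower median level of asRNA sites, 8.33 against 9.02 at lncRNA sites, was not separated from this. By chromosome, the 12 members on X had a median of 0.18, with 11 above 0, and the 69 on the autosomal arms one of 0.12, with 54 above 0. Among other promoter genes the medians were 0.17 on X and 0.16 on the autosomal arms.

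The 85 members had 163 entries within 1000 bp, and 64 members had more than 1. Each entry is a peak of either peak list, so entries of 1 member may cover the same reads. Folds of 1 member's entries differed by a median of 0.01 and by at most 0.19, in the authors' deposited table. Of the 6 called members, 3 had a single entry and 5 had every entry called. Because entries may share reads, this is not repeated support for a call.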

How the data were processed

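RNAPII precipitations and inputs were sequenced from H1 knockdown and LacZ cells. The submitters' processing notes name Bowtie2 (2.2.2), MACS (1.4.2), DiffBind (2.10.0) and DESeq2 along with the dm3 build; peak names say MACS2, so the caller's version is unsettled. The authors' deposited table gives log2 concentrations, the log2 fold and a p-value and FDR per entry. The fold matched the difference of the condition means to within 0.01, and the calls were exactly the entries with p under 0.05. In the deposited peak lists, called on libraries pooled per condition, peaks carry an enrichment ratio (fold over input) and the −log10 of q.

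One entry per gene was chosen by highest concentration, ties by the smaller p (6 members had ties). Gene neighbours came from a Release 6 table without coordinates being converted, and all 85 members matched it, 3 under a newer symbol. The planned fit across libraries needs values per library, which the files used do not hold, so no new test was run and depth per library is unknown. Members and lists were chosen with earlier results of these data known. Named were called members, the 8 of smallest p per direction, the 6 of highest and 3 of lowest concentration, the 3 of highest concentration found in 1 peak list alone (per list), those nearest the distance limit, transcripts of known role, and partners and pathway genes by smallest p; others were chosen after their values were seen. The choice of 1 entry per gene and the counting of calls were tested on simulated data, with the known answers returned. Python 3.11.15, numpy 2.4.6, pandas 2.3.3, scipy 1.17.1 and matplotlib 3.10.9 were used.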

Additional observations from a re-analysis of the deposited data

How the results depend on the processing

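No paired analysis was possible because the files used give 1 value per condition, and for the same reason no replicate could be left out. An FDR of 0.05 left 0 of the 6 members called higher, and a minimum fold of 0.5 left 3. Calls numbered 2 of 62 members with sites within 250 bp, 1 of 19 with asRNA names alone and 3 of 53 without sites at a protein-coding transcript. These sets are smaller than the 85, and 6.76% of all promoter genes were called higher. With no limit on distance the median fold was 0.00 and 49.2% of 187 names were above 0. Without members near a coding gene, 0 of 17 were called, the median was 0.00 and 47.1% were above 0. Both exclusions by coding genes were chosen after seeing the data, as were leaving out microRNA hosts and taking ties by the larger p, each of which gave 6 calls. No alternative called a member lower, over 15 settings. Members in both peak lists numbered 66 with a 50% overlap and 74 with a −log10 q of at least 5, against 74; those in the H1 knockdown list alone numbered 15 and 7, against 7, and those in the LacZ list alone 4 and 1, against 4. The planned exclusion by TSS of neighbours was not run, since the gene table gives no strand; gene spans were used in its place. Depth per library is unknown here, so the error of a single fold cannot be given.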

Other observations

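Away from promoters, lncRNA and asRNA names marked a different kind of site. Sites beyond 1000 bp alone were found for 102 such names, and their median fold was -0.04 in the authors' deposited table. Folds lay above 0 at 27 and below 0 at 74, and 1 of the 102 was called higher, against 3.99% of all entries. A repeat annotation was carried by 76 of these sites (74.5%), against 1 of the 85 promoter sites. The 76 had a median fold of -0.04 and the other 26 one of 0.045. The called site was assigned to lncRNA:CR43927, 14773 bp from its TSS in an intron on 2L, with 9.32 in H1 knockdown cells and 8.72 in LacZ cells (fold 0.60, p = 0.0483) in the authors' deposited table. The main site assigned to lncRNA:flam, the source of piRNAs against transposons in somatic cells of the ovary, lay 19501 bp into the locus, with 11.62 in H1 knockdown cells and 11.68 in LacZ cells. The site nearest lncRNA:bxd, a transcript of the bithorax complex, had 8.15 in H1 knockdown cells and 8.35 in LacZ cells (fold -0.19, p = 0.233) in the authors' deposited table.

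Promoter sites were also named for 73 other noncoding genes, among them snRNA, snoRNA and microRNA genes. The median of their folds was 0.06, with 57 above 0 and 3 of the 73 called higher, in the authors' deposited table. Among all 4278 promoter genes the share called higher was 6.76%.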
